A study of Mus musculus with 6 samples.

Results

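The entries for mmu-miR-7a, mmu-miR-7b and mmu-miR-375 were examined in small RNA libraries from mouse N2A (Neuro2A) cells, an established neuroblastoma line. Of 3 libraries each, the si-NC group came from cells given a control siRNA and the si-circCpsf6 group from cells given an siRNA directed at the circular RNA circCpsf6, each at 100 nM. At issue was whether these microRNAs (miRNAs) stood at other levels once circCpsf6 was targeted. The circular RNA itself was not analysed here. Members were chosen by name alone: mouse entries whose base name, without arm, copy number and variant suffix, was miR-7a, miR-7b or miR-375. The rule found 6 of 1080 entries, namely miR-7a-5p, miR-7a-1-3p, miR-7a-2-3p, miR-7b-5p, miR-7b-3p and miR-375-3p, and each passed the filter on low values. No entry for miR-375-5p was found by the rule. miR-7a-5p was listed only with the suffix R+1, read here as 1 base longer at the 3′ end than the reference.

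The values are the authors' normalized read numbers, which summed to between 2570449 and 3268351 per library over all 1080 entries. Their read depth is therefore unknown. Shares of the summed values below are of these sums, in which rows later merged as copies are counted more than once. si-NC replicate 3 stood apart, as it had 558 entries with a value of 1 or more, against 717 to 849 in the other libraries. The members' differences between the groups and the medians and correlations are given with and without it. The labels do not say whether replicates were separate cultures, so the spread that p-values rest on may be technical. In bulk RNA, fewer cells with a miRNA and less of it per cell cannot be told apart.

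A miRNA is cut from a hairpin transcript, and the 5p and 3p arms of the hairpin give different mature strands, of which usually the main strand is kept and the other degraded. Bases 2 to 8 of the mature strand, the seed, pair with target mRNAs. miR-7 is a deeply conserved miRNA of neurons and of endocrine cells such as those of the pituitary and the pancreatic islets, and it is bound by the circular RNA Cdr1as, which carries many miR-7 sites and can be cut by miR-671. miR-375 is best known from pancreatic beta cells, where it restrains insulin secretion, and from other neuroendocrine cells.

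The mature sequences are shown because they decide which entries share targets and which hairpin a read can be traced to. RefSeq's miRNA table (GRCm38.p6) held 5 of the 6 names. Capitals mark the seed, and each sequence runs 5′ to 3′.
miR-7a-5p: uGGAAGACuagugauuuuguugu
miR-7b-5p: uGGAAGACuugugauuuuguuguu
miR-7a-1-3p: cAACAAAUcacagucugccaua
miR-7a-2-3p: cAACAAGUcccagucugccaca
miR-7b-3p: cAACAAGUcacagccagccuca

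The seed of miR-7a-5p and miR-7b-5p is the same, and in the table no other mature mouse miRNA has it. Counted from the 5′ end and with miR-7a-5p first, they differ over 23 compared positions only by A10U, outside the seed. How the authors assigned reads between such near-identical strands is not given in the sources used here, so the split between them is uncertain. The 5p strand of miR-7a is identical from both of its hairpins and does not show which was its source, whereas the 3p strands do: from miR-7a-1-3p to miR-7a-2-3p the changes are A7G, A10C and U21C. A7G lies in the seed. By seed, miR-7a-2-3p groups with miR-7b-3p, with 18 of 22 positions alike, and miR-7a-1-3p stands alone.

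The 4 hairpins lie on 4 chromosomes (GRCm38, GENCODE M21, matched by name). Mir7-1 lies on chromosome 13 at 58392779 to 58392886, minus strand, in an intron of Hnrnpk, which encodes an RNA-binding protein and is read from the same strand. Mir7-2 is intergenic on chromosome 7 at 78888277 to 78888373, plus strand, with Aen as the nearest gene 7481 bases away. Mir7b is intergenic on chromosome 17 at 56242988 to 56243098, plus strand, 183 bases from the long noncoding RNA AC026385.1. Mir375 is intergenic on chromosome 1 at 74900658 to 74900721, minus strand, 1350 bases from Cfap65. The Mir7b hairpin in RefSeq is shown with its 5p and then its 3p strand in capitals, since its arms differed most in level.
Mir7b: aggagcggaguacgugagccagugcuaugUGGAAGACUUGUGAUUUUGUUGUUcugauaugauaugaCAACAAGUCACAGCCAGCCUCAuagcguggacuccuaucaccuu

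By read numbers, the 5p strands of miR-7 were among the most abundant miRNAs of these cells, and miR-375-3p was not. miR-7a-5p ranked 1 or 2 of 740 mouse-named entries in each of the 6 libraries, and miR-7b-5p ranked between 3 and 12. Together they held 8.52%, 11.5% and 5.23% of the summed values in the 3 si-NC replicates, in order, against 10.5%, 14.4% and 9.13% in those of si-circCpsf6. miR-375-3p ranked between 255 and 329, which places the islet miRNA of this set well below its neuronal and endocrine partner. The ranks ran from 194 to 233 for miR-7a-1-3p, from 208 to 267 for miR-7a-2-3p and from 349 to 437 for miR-7b-3p.

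By mean over the 6 libraries the order of the normalized read numbers was miR-7a-5p (218283), miR-7b-5p (75946), miR-7a-1-3p (605), miR-7a-2-3p (503), miR-375-3p (217.5) and miR-7b-3p (68.3). These strands are of nearly equal length, so levels were compared without correction for it. Whether different strands were read with equal efficiency was not tested. Ranks and ratios between strands are therefore those of reads and need not be those of molecules. Each step in this order held in 6 of 6 libraries, except that between the 3p strands of the miR-7a hairpins. There miR-7a-1-3p was higher in 3 of 3 si-NC libraries and miR-7a-2-3p in 3 of 3 si-circCpsf6 libraries. Among all mouse entries, miR-27b-3p (mean 256912) stood just above miR-7a-5p and miR-741-3p (83104) just below it. miR-7b-5p lay between miR-881-3p (77434) and miR-143-3p (73415), and the SD of 23208 over its 6 libraries exceeded its distance to either. miR-375-3p lay between miR-1843b-5p (220) and miR-339-3p (215), also within its SD of 76.9.

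**Figure D1:**
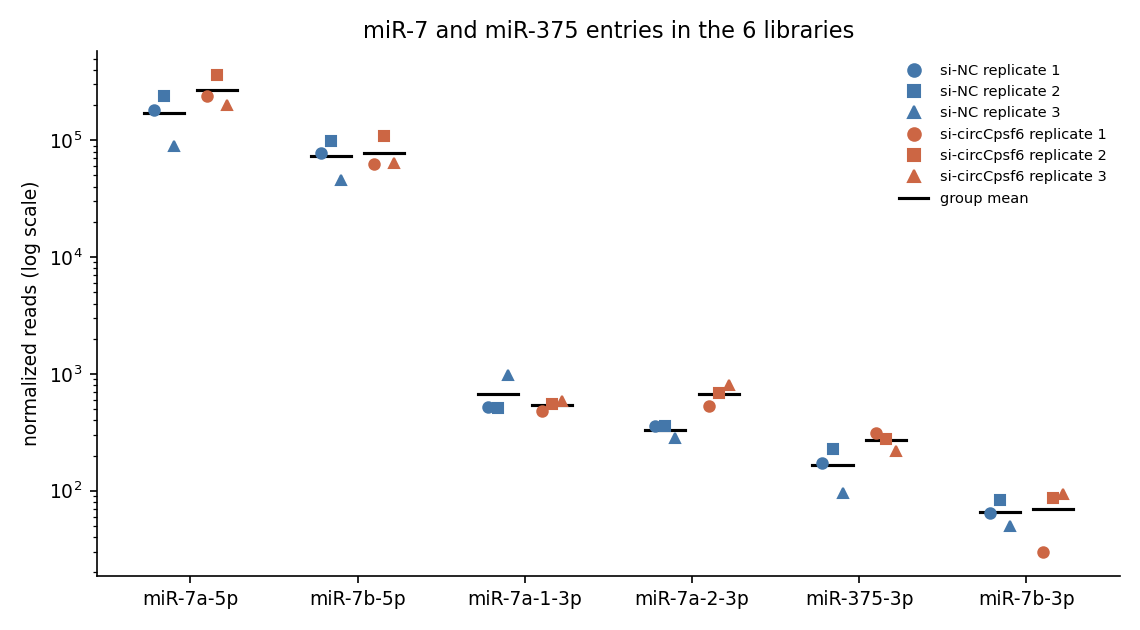
Normalized reads on a log axis of the 6 entries in the 6 libraries, with si-NC in blue, si-circCpsf6 in orange, the replicate by marker shape and the group mean as a line. The 5p strands stand at 45970 reads or more and the other 4 entries at 988 or fewer, and only for miR-7a-2-3p do the groups not overlap.

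No miR-7 or miR-375 entry passed the test between the groups. By limma on log2(value + 1) with Benjamini-Hochberg adjustment over 916 entries, 0 of the 6 had an adjusted p under 0.05, as had 0% of all entries tested, and 1 of the 6 had an unadjusted p under 0.05, against 6.22% of all entries. That entry was miR-7a-2-3p, the strand made only from the Mir7-2 hairpin. For 1 of the 6, again miR-7a-2-3p, the groups did not overlap, as for 11.7% of all entries and, counting only those higher in si-circCpsf6 as it was, 6.77%. The median log2 change over all entries tested was 0.086.

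The si-NC values of mmu-miR-7a-2-3p were 357, 361 and 282 normalized reads and the si-circCpsf6 values 534, 683 and 798, for replicates 1, 2 and 3 as in all such series of values. All 3 si-circCpsf6 libraries lay above all 3 si-NC libraries. The means were 333 ± 44.5 and 672 ± 132 (SD, n = 3), a 2.02-fold difference. The log2 change was 1.00 (SE 0.31, 95% interval 0.28 to 1.72), with an unadjusted limma p of 0.0123 and an adjusted p of 0.434. Leaving out any library gave a log2 change between 0.86 and 1.15, and leaving out si-NC replicate 3 gave 0.88. In the authors' deposited table its fold change was 2.01 and its unadjusted p 0.0364.

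miR-7a-1-3p, the matching strand of the Mir7-1 hairpin in Hnrnpk, had si-NC values of 518, 506 and 988 and si-circCpsf6 values of 480, 550 and 586. Apart from si-NC replicate 3, which was the highest, the values of the groups were mixed. Its log2 change was -0.25 (SE 0.35, 95% interval -1.05 to 0.56, limma adjusted p = 0.948), and without si-NC replicate 3 it was 0.068.

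Within each library, the ratio of miR-7a-2-3p to miR-7a-1-3p compares the 3p strands of the 2 hairpins that give the same miR-7a-5p. It does not depend on how a library was scaled. Whether it follows the output of the hairpins was not tested. With si-NC the ratio stood at 0.689, 0.713 and 0.285, and with si-circCpsf6 at 1.11, 1.24 and 1.36. The groups did not overlap. The difference of the mean log2 ratios was 1.25, or 2.38-fold, and was 0.82 without si-NC replicate 3, the lowest library. This ratio was chosen after its values were seen. The exact permutation p was 0.1 (two-sided), the smallest that 3 against 3 libraries allow, and 0.35 after adjustment over the 7 sums and ratios tested. Among ratios of all 59685 pairs of mouse-named entries with a mean of 100 or more, 17.4% did not overlap between the groups.

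miR-7a-5p, the strand that carries the shared seed and makes up most of the miR-7 signal, had si-NC values of 182067, 238295 and 88548. The si-circCpsf6 values were 237380, 364458 and 198948. si-NC replicate 2 lay above 2 of the si-circCpsf6 libraries, so the groups overlapped. As a share of the summed values it was 5.86 ± 2.35% with si-NC and 8.77 ± 2.17% with si-circCpsf6 (SD, n = 3). The log2 change was 0.72 (SE 0.43, 95% interval -0.27 to 1.72, limma adjusted p = 0.735), with the lowest value on leaving out a library, 0.31, reached without si-NC replicate 3.

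miR-7b-5p, its near-identical relative from chromosome 17, had si-NC values of 77306, 97695 and 45970 and si-circCpsf6 values of 63035, 107713 and 63955. The highest value belonged to si-circCpsf6 and the lowest to si-NC, with the others mixed. Its log2 change was 0.11 (SE 0.37, 95% interval -0.75 to 0.96, limma adjusted p = 0.992) and its sign was the opposite without si-NC replicate 3 (-0.20) or without si-circCpsf6 replicate 2 (-0.15).

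The balance between miR-7a and miR-7b, each summed over its arms, separated the groups, although neither miRNA did so by its 5p strand alone. The ratio of miR-7a to miR-7b was 2.36, 2.45 and 1.95 with si-NC, and 3.78, 3.39 and 3.13 with si-circCpsf6. All 3 si-circCpsf6 libraries lay above all 3 si-NC libraries. miR-7a-5p made up 70.2%, 70.9% and 65.8% of the 5p strands with the miR-7 seed with si-NC, and 79.0%, 77.2% and 75.7% with si-circCpsf6. The mean log2 ratio was 0.61 higher in si-circCpsf6, or 1.53-fold, and leaving out any library gave 0.51 to 0.67, the lowest without si-NC replicate 3. The exact permutation p was 0.1 (two-sided), the smallest possible, and 0.35 adjusted over 7 tests, beside the 17.4% of entry pairs whose ratios did not overlap. The 7 include the ratio of miR-7a-2-3p to miR-7a-1-3p, chosen after its values were seen. Its equally small p lowers the adjusted p of the miR-7a to miR-7b ratio, which would be higher without it.

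**Figure D2:**
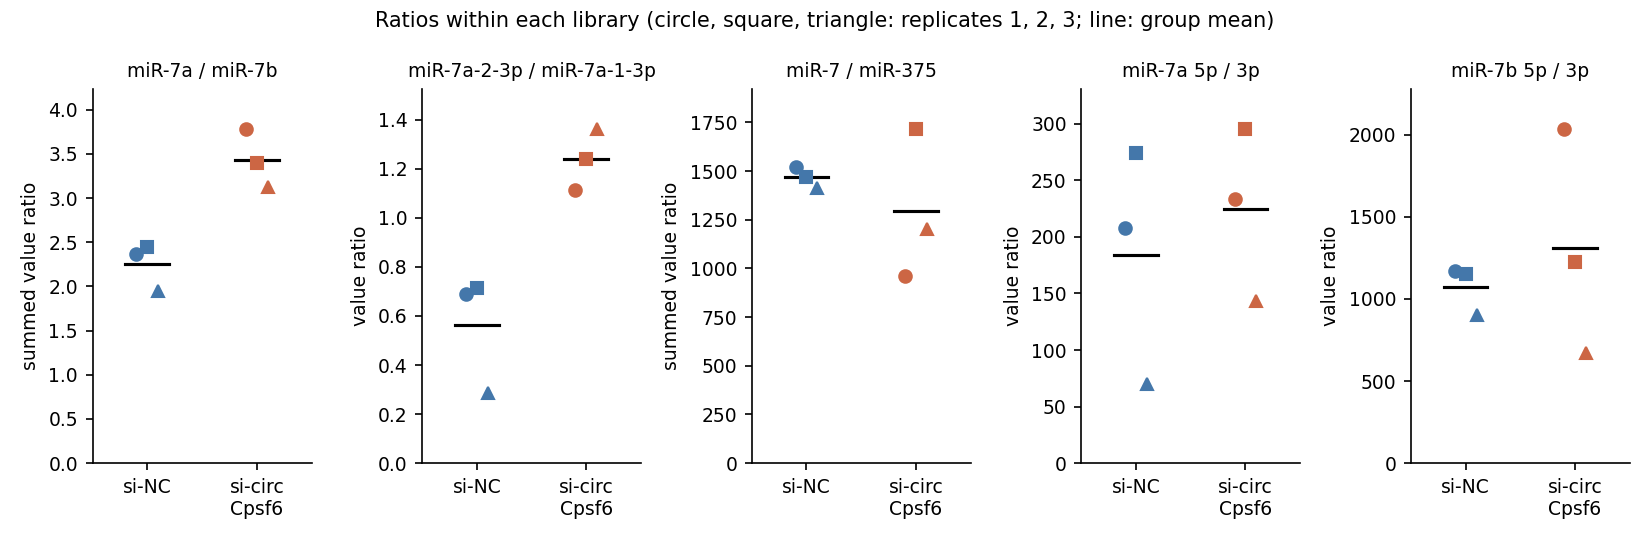
Ratios of normalized reads within each library, on linear axes that start at 0, for si-NC (blue) and si-circCpsf6 (orange), with replicates by marker shape and the group mean as a line. miR-7a over miR-7b and miR-7a-2-3p over miR-7a-1-3p separate the groups, from 1.95 to 2.45 against 3.13 to 3.78 and from 0.285 to 0.713 against 1.11 to 1.36, and the other 3 ratios overlap.

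All miR-7 entries together summed to 260313, 336941 and 135838 with si-NC, and to 301459, 473491 and 264381 with si-circCpsf6. si-NC replicate 2 lay above 2 of the si-circCpsf6 libraries. The mean log2 sum was 0.55 higher in si-circCpsf6 (exact permutation p = 0.4, adjusted 0.56), and 0.18 higher without si-NC replicate 3.

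The si-NC values of mmu-miR-375-3p were 171, 229 and 96, and its si-circCpsf6 values 313, 276 and 220. The groups overlapped only through si-NC replicate 2 and si-circCpsf6 replicate 3. The means were 165 ± 66.7 and 270 ± 46.8 (SD, n = 3). The log2 change was 0.77 (SE 0.44, 95% interval -0.22 to 1.77, limma adjusted p = 0.735), and 0.43 without si-NC replicate 3. In the authors' deposited table its fold change was 1.63, with an unadjusted p of 0.0982.

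Summed miR-7 stood at 1522, 1471 and 1415 times miR-375 with si-NC, and at 963, 1716 and 1202 times with si-circCpsf6. The si-NC ratios lay close together although both miRNAs were lowest in si-NC replicate 3, and the si-circCpsf6 ratios lay on either side of them. The mean log2 ratio was 0.22 lower in si-circCpsf6 (difference -0.22, exact permutation p = 0.4, adjusted 0.56). Omitting si-NC replicate 3 gave a difference of -0.25.

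**Figure D3:**
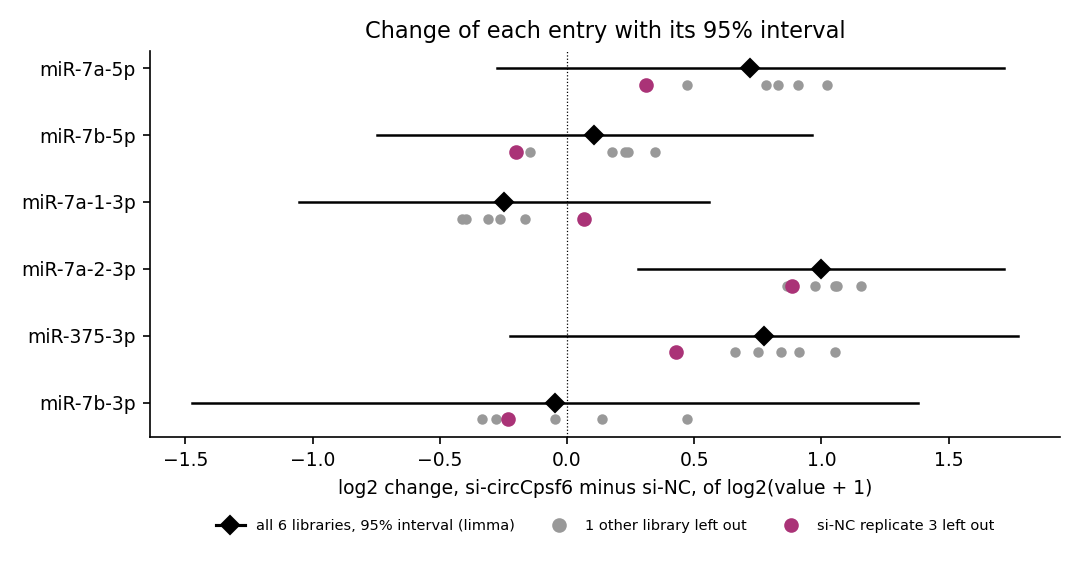
Log2 change of each entry, si-circCpsf6 minus si-NC, on the log2(value + 1) scale. Diamonds and bars give the limma estimate and its 95% interval from 6 libraries, and dots the estimates with 1 library left out, purple for si-NC replicate 3; only the interval of miR-7a-2-3p, 0.28 to 1.72, leaves out 0.

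By read numbers, the 5p strand was the main one for both miR-7a, pooled over its 2 hairpins, and miR-7b in every library, and by more for miR-7b. miR-7a-5p cannot be assigned to Mir7-1 or Mir7-2, so neither hairpin has an arm ratio of its own. miR-7a-5p was 208, 275 and 69.7 times the sum of its 3p strands with si-NC, and 234, 295 and 144 times with si-circCpsf6. For miR-7b the 5p strand was 1171, 1149 and 901 times the 3p strand with si-NC, and 2033, 1224 and 673 times with si-circCpsf6. Within each group replicate 3 had the lowest 5p to 3p ratio for both miRNAs. The mean log2 ratio of 3p to 5p differed between the groups by -0.44 for miR-7a (exact permutation p = 0.6, adjusted 0.7) and by -0.16 for miR-7b (p = 0.7, adjusted 0.7). Without si-NC replicate 3 the difference was 0.15 for miR-7a and -0.034 for miR-7b. The low miR-7b-3p had si-NC values of 65, 84 and 50 and si-circCpsf6 values of 30, 87 and 94 (log2 change -0.048, SE 0.62, limma adjusted p = 0.992, and -0.23 without si-NC replicate 3), so that the lowest and the highest library both belonged to si-circCpsf6.

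**Figure D4:**
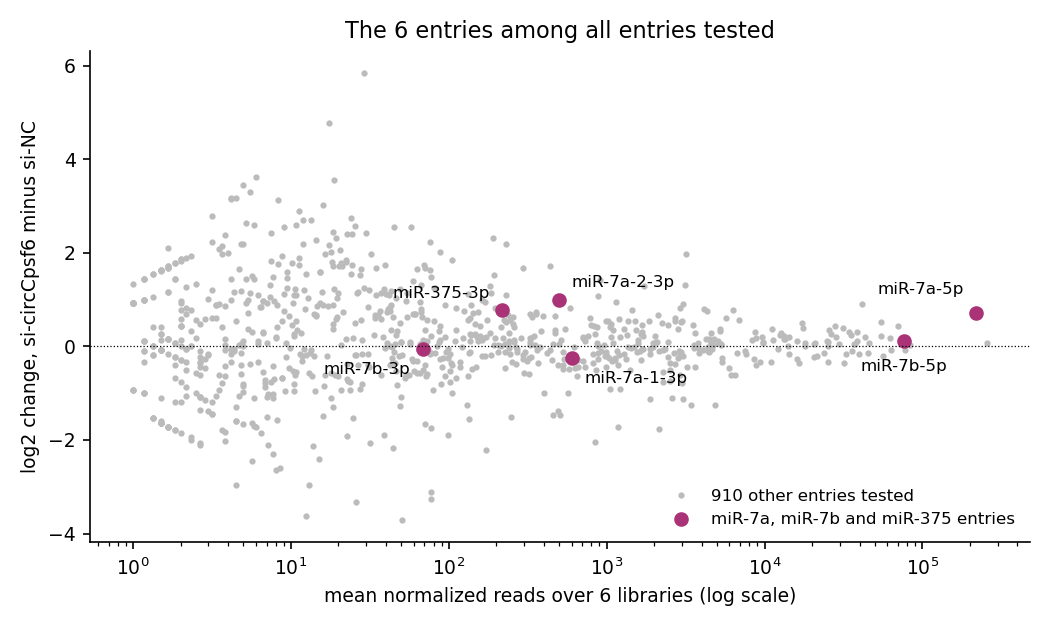
Mean normalized reads over 6 libraries (log axis) against the log2 change, si-circCpsf6 minus si-NC, of the 916 entries tested, with the 6 miR-7 and miR-375 entries in purple. miR-7a-5p lies at the right end with a log2 change of 0.72, miR-7b-5p near 0 at 0.11, and the changes of low entries scatter more widely.

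Other miRNAs known from islets and neuroendocrine cells were read from a list of 14, each by its most abundant entry. By limma 0 of the 14 passed with an adjusted p under 0.05 and 4 had an unadjusted p under 0.05, against 6.22% of all entries, with 6 log2 changes above 0, 8 below it and a median of -0.37, against 0.086 for all entries tested. The groups did not overlap for 2 that were higher and 4 that were lower in si-circCpsf6, where 6.77% and 4.91% of all entries were. Of the 14, 5 are miRNAs of the miR-200 family (miR-200a, miR-200b, miR-200c, miR-141 and miR-429) that the epithelial list also holds, so the lists do not count as separate results. These 5 had log2 changes below 0 (median -2.60) and supplied 3 of the 4 unadjusted calls and 3 of the 4 lower members without overlap. Their values were low, with miR-429-3p at 19, 23 and 27 with si-NC and 6, 0 and 0 with si-circCpsf6. The median is the change of miR-141-3p (si-NC 5, 11 and 27, si-circCpsf6 8, 0 and 0), for which the groups overlapped. The remaining 9 had 6 log2 changes above 0 and 3 below, with a median of 0.53. Among the 6 were miR-183-5p (si-NC 5, 0 and 0, si-circCpsf6 4, 4 and 0) and miR-96-5p (si-NC 0, 0 and 0, si-circCpsf6 5, 4 and 10), both near the floor. miR-96-5p was the unadjusted call outside the miR-200 family (limma unadjusted p = 0.0118) and 1 of the 2 higher members without overlap. Without si-NC replicate 3 the median was -0.62 for the 14 and 0.26 for the 9, against -0.041 for all entries tested. The most abundant of the 14 were the activity-induced miR-132-3p (si-NC 2312, 2507 and 2393, si-circCpsf6 3641, 3927 and 2897, adjusted p = 0.735), miR-184-3p (si-NC 3384, 3473 and 2408, si-circCpsf6 2334, 2295 and 2404, adjusted p = 0.779), miR-212-3p (log2 change 0.58) and the neuronal miR-153-3p (0.11). miR-671-5p, which pairs closely with Cdr1as and can cut it, had si-NC values of 954, 1264 and 1386 and si-circCpsf6 values of 1338, 1269 and 813 (log2 change -0.092, adjusted p = 0.992, and 0.020 without si-NC replicate 3).

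The labelled neuroblast origin was read against marker miRNAs. All 9 neuronal markers were listed, with a sum per library of 43697 to 76283, the highest in si-NC replicate 3, and 0 of 9 passed (5 log2 changes above 0 and 4 below, median 0.11, and 0.55 without si-NC replicate 3). miR-137-3p, for instance, had si-NC values of 5588, 4933 and 18757 and si-circCpsf6 values of 8660, 6868 and 12964. By limma 1 of the 9 had an unadjusted p under 0.05, against 6.22% of all entries, namely miR-138-5p (log2 change 0.79, unadjusted p = 0.0416). The groups did not overlap for 1 of the 9, miR-9-5p, which was lower in si-circCpsf6, as were 4.91% of all entries. The 5 endothelial, smooth muscle and fibroblast markers were abundant as well, from 69875 to 110849, mainly through miR-143-3p. All 5 had log2 changes above 0 (median 0.38, and 0.16 without si-NC replicate 3), as had 510 of the 916 entries tested. By limma 0 of 5 passed. The sign was the same for miR-7a-5p, miR-7a-2-3p, miR-375-3p and miR-7b-5p, and the opposite for miR-7a-1-3p (-0.25) and miR-7b-3p (-0.048). For miR-214-3p the groups did not overlap (si-NC 651, 797 and 201, si-circCpsf6 1131, 1482 and 1216, log2 change 1.43, limma unadjusted p = 0.0219, adjusted p = 0.553). Of all entries tested, 6.77% were higher in si-circCpsf6 without overlap and 6.22% had an unadjusted p under 0.05. The other markers were low: 7 to 431 for the 6 epithelial miRNAs, 43 to 132 for muscle, 13 to 46 for blood and 0 to 5 for the liver miRNA miR-122-5p, listed at 0 in 5 libraries. An entry was found for 2 of 5 muscle and 3 of 5 blood markers. The epithelial markers summed to 197, 431 and 151 with si-NC, and to 62, 40 and 7 with si-circCpsf6. By limma 0 of 6 passed and 3 had an unadjusted p under 0.05, against 6.22% of all entries. For 3 of 6 the groups did not overlap, each lower in si-circCpsf6, as were 4.91% of all entries. Log2 changes were below 0 for 5 and above it for miR-205-5p (si-NC 0, 0 and 0, si-circCpsf6 0, 6 and 0). The part of these markers in the miR-7 and miR-375 values was not tested.

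Among 341 other mouse entries with a mean of 100 or more, those most like miR-7a-5p over the 6 libraries by Pearson's r of log2(value + 1) were miR-342-5p (r = 0.98), miR-92b-3p (0.97), miR-322-3p (0.97), miR-351-5p (0.97) and miR-351-3p (0.97). Those most like miR-7b-5p were miR-744-5p (1.00), miR-743b-5p (0.98), miR-27a-5p (0.97), miR-212-5p (0.96) and miR-30d-5p (0.94), and those most like miR-375-3p were miR-214-3p (0.94), miR-342-5p (0.93), miR-674-3p (0.91), miR-532-3p (0.91) and miR-92b-3p (0.90). miR-342-5p and miR-92b-3p stood on the lists of both miR-7a-5p and miR-375-3p, and miR-7b-5p shared no name with either. Between the members themselves r was 0.92 for miR-7a-5p with miR-375-3p, 0.86 for miR-7a-5p with miR-7b-5p and -0.82 for miR-7a-5p with miR-7a-1-3p. Without si-NC replicate 3 these were 0.67, 0.68 and 0.048 over 5 libraries, so the last rested on that library. The correlations named above then ran from 0.89 to 0.93 for miR-7a-5p, from 0.91 to 0.99 for miR-7b-5p and from 0.55 to 0.74 for miR-375-3p. These are descriptions over 6 or 5 points that share the 2 groups, the authors' normalization and, in the first case, si-NC replicate 3.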

How the data were processed

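Per the labels' protocols, Trizol was used to extract RNA and the TruSeq small RNA kit to make the libraries. The build was mm9, per the submitters' processing notes. Methods of alignment, counting and normalization were not given in the sources used here. Tested values were the authors' normalized read numbers, deposited rounded to whole numbers and treated as a score, not as counts. The authors also deposited a fold change (ratio of group means), its log2 and an unadjusted p-value, per the file headers.

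Samples were grouped by title. Copies among the 178 rows repeating an earlier row were merged (alike and above 0 in at least 3 libraries, or of the same name), leaving 1046 of 1080 entries; 916 with a mean of 1 or more were tested by limma 3.58.1 (trended variance, R 4.3.3) on log2(value + 1) with Benjamini-Hochberg adjustment. A log2 change on this scale can understate changes of low entries. Sums and ratios were compared on a log2 scale by two-sided exact permutation tests, arm ratios with a pseudocount of 1. Alternatives were other pseudocounts (0.1 and 5), filters and scalings, copies kept apart, libraries left out or weighted, a replicate block and 1 residual component. The limma step was tested on simulated data with changes larger than any of the members' and no library that stood apart. That test therefore does not show whether changes of the members' size would be found. All members were named, with the 5 entries most like each main strand, up to 3 neighbours in level and up to 4 members per list. Descriptions without si-NC replicate 3 and the split of the islet list were added after seeing the data. Members and lists were chosen with earlier results of these data known. Positions are on GRCm38, not the authors' build. Other tools were Python 3.11.15, numpy 2.4.6, pandas 2.3.3 and matplotlib 3.10.9.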

Additional observations from a re-analysis of the deposited data

How the results depend on the processing

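The normalized values carry no read depth, and 3 libraries a group leave wide intervals around each change. Of 200 results under alternatives, 186 stayed the same, 4 counts moved, 2 entries passed that had not, and 8 reversed. The same means the same direction and side of the 0.05 threshold or, for counts, the same count. Exact tests of the sums and ratios cannot give a p under 0.1 (0.25 with the replicate block), so for these only a reversal could show. The block and, for ratios, rescaling (pseudocount aside) cannot reverse them. Keeping copies apart left their values unchanged. These outcomes are among the 186 but check nothing. Over all entries 0 passed, against 4 without si-NC replicate 3, 31 with libraries weighted by limma and 41 with 1 residual component. Leaving out each library gave 0 to 4. Of the miR-7 and miR-375 entries 0 passed, against 2 with 1 residual component, miR-7a-5p (limma adjusted p = 0.0400, range over its alternatives 0.0400 to 0.938) and miR-7a-2-3p (0.0417, range 0.0417 to 0.773). That component comes from the residuals of the group fit, so it lowers the spread and leaves the log2 changes as they were. Of the reversals, miR-7a-1-3p went to 0.068, miR-7b-5p to -0.20 and the miR-7a ratio of 3p to 5p to 0.15 without si-NC replicate 3. miR-7b-5p was also -0.15 without si-circCpsf6 replicate 2 and -0.23 with array weights. miR-7b-3p went to 0.14 on leaving out si-NC replicate 2 and to 0.47 on leaving out si-circCpsf6 replicate 1, where the miR-7b ratio of 3p to 5p was 0.23. The cause of these was not tested. With each library left out in turn, the log2 differences ran from 0.18 to 0.83 for summed miR-7, from 0.43 to 1.06 for miR-375, from -0.41 to 0.068 for miR-7a-1-3p, from -0.20 to 0.35 for miR-7b-5p, from -0.34 to 0.47 for miR-7b-3p, from -0.84 to 0.15 and from -0.56 to 0.23 for the miR-7a and miR-7b arm ratios, from -0.45 to -0.033 for miR-7 to miR-375 (exact permutation p = 0.1 without si-circCpsf6 replicate 2), and from 0.82 to 1.48 for miR-7a-2-3p to miR-7a-1-3p. The unmodified entries alone leave out miR-7a-5p, so miR-7a is then its 3p strands only and summed miR-7 is mainly miR-7b-5p. These different quantities gave 0.17 for miR-7a to miR-7b, 0.11 for summed miR-7 and -0.67 for miR-7 to miR-375 (exact permutation p = 0.1, against 0.4 with all entries). They are counted among the 186 but do not check the main values.

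Samples that share a replicate number did not deviate together for every number (correlations of deviations 0.047, 0.48 and 0.40), and not every sample correlated best with its own number. With the replicate block 0 entries passed, miR-7a-2-3p had an adjusted p of 0.337 and miR-7a-5p of 0.442. Count tests were not run because the values are not counts, and shares of variants could not be given because each strand had 1 entry.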

Other observations

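2 low entries named after miR-7 of other species were outside the rule and entered none of the sums. cpo-miR-7-5p_R+1 had si-NC values of 72, 81 and 39 and si-circCpsf6 values of 75, 92 and 36. bta-miR-7_R+1_1ss24TA had si-NC values of 74, 99 and 0 and si-circCpsf6 values of 73, 93 and 19. For both, replicate 3 was the lowest of its group.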
